A study of Rattus norvegicus with 28 samples.

Results

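Fos, Fosb, Junb and Jun are 4 of the genes that encode the AP-1 transcription factors. They were followed by their Ensembl rat gene identifiers through RNA-seq counts of the orbitofrontal cortex, the part of the frontal lobe above the eyes that helps to weigh rewards and the cues announcing them. The 4 identifiers (Fos ENSRNOG00000008015, Fosb ENSRNOG00000046667, Junb ENSRNOG00000042838, Jun ENSRNOG00000026293) were chosen by name and not by their values. All 4 were among the 26405 gene identifiers of the count tables, and all 4 were among the 15413 genes that passed the filter on low counts.

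The tissue came from Sprague Dawley rats trained to self-administer methamphetamine (meth), a psychostimulant, or saline through an intravenous catheter. The 4 groups were saline rats and meth rats at withdrawal day 2 and at withdrawal day 35. Each group had 4 libraries, and each library held poly(A) RNA from punches pooled from 2 rats, so the spread between libraries is one between pools. All rats were decapitated straight from the home cage, so no drug, cue or relapse test came just before the tissue was taken. The saline rats had the same surgery and training as the meth rats. The sources used here give neither age nor sex.

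AP-1 is a pair of proteins, either a Fos-family protein joined to a Jun-family protein or 2 Jun-family proteins, held together by a leucine zipper and bound to DNA through the adjacent basic region. The genes belong to the immediate-early class. Their transcription starts within minutes of synaptic activity through factors that are already in the cell, such as CREB and SRF, and the transcripts are short-lived. In neurons Fos RNA is therefore widely read as a trace of recent activity, while a truncated product of Fosb is stable and builds up in reward circuits under repeated drug exposure.

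Levels are given as CPM, the reads of a gene per 1000000 gene counts with TMM-scaled library sizes. Gene counts per library, in the same units of 1000000, ranged from 20.3 to 48.5 and were lowest in the day 2 saline libraries (20.3 to 23.5). The fewest reads behind any value of the 4 genes were 131, for Fosb in day 2 saline replicate 16, and the most were 3826, for Junb in day 35 saline replicate 9. The gene identifiers are paired with no symbols apart from these 4, so lists of other immediate-early genes and of cell type markers could not be evaluated. In bulk tissue, fewer cells of a type and less RNA per cell cannot be told apart.

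The levels of all 4 genes were higher on average at withdrawal day 35 than at day 2, in saline rats as well as in meth rats, and did not separate by drug. Fos differed most between the days and Jun least. None of these differences passed edgeR's test at an adjusted p of 0.05 over all genes in the fit of all 16 libraries without a lane term. The day difference was also averaged over both drug groups, a comparison chosen after the values had been seen. There 2 genes passed with the sequencing lane as a block, where 0.551% of all genes were called higher. With DESeq2 3 passed, where 2.02% of genes with an adjusted p were called higher. With edgeR 0 to 3 passed when 1 library was left out. The 3 came without day 35 saline replicate 11, where 0.458% of all genes were called higher.

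Fos, the gene of the founding Fos-family partner, stood at 19.5, 10.2, 17.0 and 8.69 CPM in day 2 saline replicates 13 to 16. In day 2 meth replicates 1 to 4 it stood at 8.75, 15.7, 13.9 and 9.41 CPM. The meth pools of day 2 thus lay within the range of the saline pools. At day 35 it stood at 54.6, 55.6, 18.6 and 21.4 CPM in saline replicates 9 to 12. In day 35 meth replicates 5 to 8 the values were 29.9, 38.6, 21.6 and 17.7 CPM. Saline replicates 9 and 10 were the highest of all 16 libraries, and the other 2 saline pools of day 35 lay within the range of the meth pools. Of the 8 libraries of day 35, 6 lay above every library of day 2, whose highest value was 19.5 CPM. The share of all genes tested with such a partial separation was not computed.

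**Figure D1:**
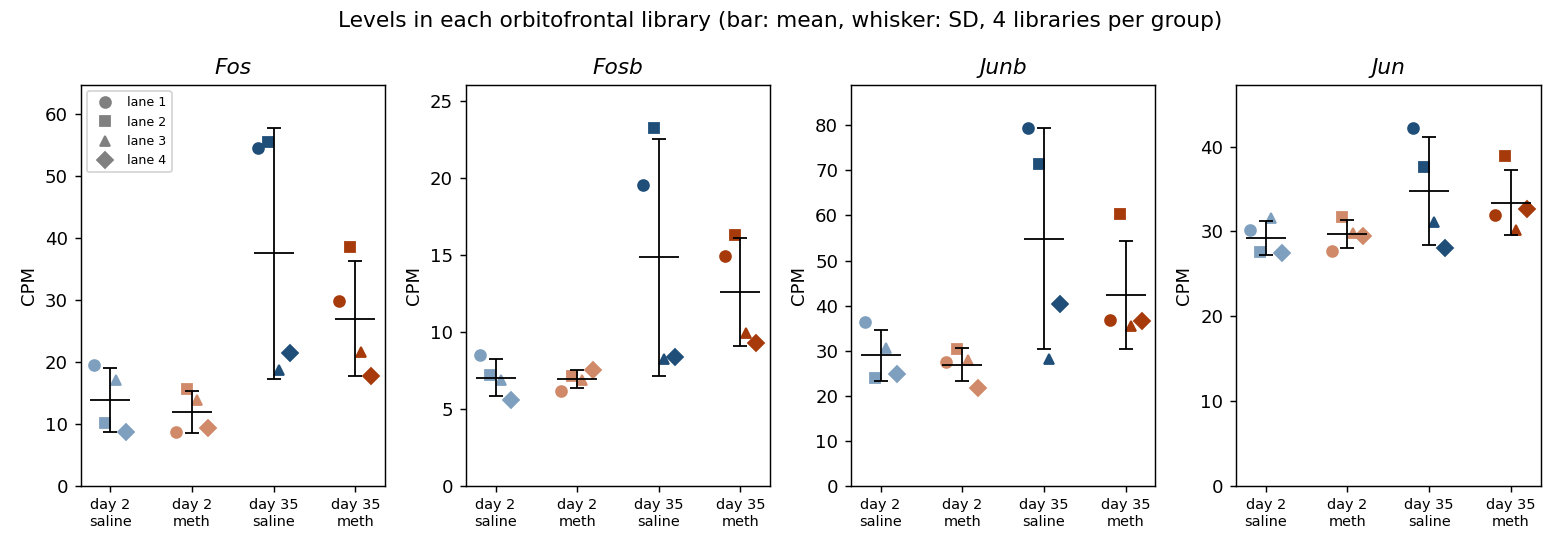
CPM (vertical axis, linear, from 0) of Fos, Fosb, Junb and Jun in the 16 orbitofrontal libraries, by group on the horizontal axis, with the marker shape giving the sequencing lane. The bar is the mean and the whisker the SD of 4 libraries; day 35 saline replicates 9 and 10 (lanes 1 and 2) are the highest for Fos, Fosb and Junb.

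Fosb encodes a second Fos-family partner, and the gene-level counts do not separate its full-length from its truncated transcript. Its levels in day 2 saline replicates 13 to 16 were 8.49, 7.17, 6.84 and 5.55 CPM. The day 2 meth replicates 1 to 4 gave 6.17, 7.14, 6.89 and 7.51 CPM, the narrowest group of this gene. At day 35 the saline replicates 9 to 12 gave 19.5, 23.2, 8.21 and 8.34 CPM. The day 35 meth replicates 5 to 8 gave 14.9, 16.3, 9.91 and 9.24 CPM, all above the day 2 libraries of both drug groups. How many of all genes tested show this was not computed. In saline rats of day 35 the same 2 pools, replicates 9 and 10, were high as for Fos, while replicates 11 and 12 lay just below the highest day 2 value.

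Junb encodes a Jun-family partner that is itself induced by activity. In day 2 saline replicates 13 to 16 it stood at 36.3, 24.0, 30.7 and 24.8 CPM, and in day 2 meth replicates 1 to 4 at 27.5, 30.4, 27.9 and 21.8 CPM. At day 35 it stood at 79.4, 71.5, 28.1 and 40.3 CPM in saline replicates 9 to 12. Meth replicates 5 to 8 of day 35 had 36.8, 60.2, 35.5 and 36.6 CPM. Replicate 6 stood apart from the other 3 meth pools, which lay between 35.5 and 36.8 CPM.

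Jun encodes the partner that most other AP-1 proteins pair with, and it was the steadiest of the 4. Its levels were 30.2, 27.6, 31.6 and 27.5 CPM in day 2 saline replicates 13 to 16, and 27.7, 31.7, 29.8 and 29.5 CPM in day 2 meth replicates 1 to 4. The day 35 saline replicates 9 to 12 had 42.2, 37.7, 31.1 and 28.1 CPM. The day 35 meth replicates 5 to 8 had 31.9, 38.9, 30.2 and 32.7 CPM. The highest library of each day 35 group was again one that was high for Fos.

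The order of the group means was the same for Fos, Fosb and Junb: day 35 saline, day 35 meth, day 2 saline, day 2 meth. For Fos the means were 37.6 ± 20.3, 27.0 ± 9.30, 13.9 ± 5.23 and 11.9 ± 3.37 CPM (SD, n = 4 each). For Fosb they were 14.8 ± 7.71, 12.6 ± 3.53, 7.01 ± 1.20 and 6.93 ± 0.563 CPM, and for Junb 54.8 ± 24.6, 42.3 ± 12.0, 28.9 ± 5.72 and 26.9 ± 3.64 CPM. Jun differed only in the order of the day 2 groups, with 34.8 ± 6.39 and 33.4 ± 3.81 CPM at day 35 and 29.2 ± 2.02 (saline) and 29.6 ± 1.64 CPM (meth) at day 2. The drug groups of the same day, neighbours in this order, overlapped for every gene. The middle neighbours, day 35 meth and the higher group of day 2 (saline, or meth for Jun), overlapped for Fos, Junb and Jun but not for Fosb (lowest 9.24 against highest 8.49 CPM). Day 35 meth and day 2 saline differ in both drug and day. The share of all genes tested that lie apart in this pair was not computed, so the gap for Fosb is a description only.

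The first question of the design is whether meth and saline rats differed at each withdrawal day. At day 2, 0 of the 4 genes were called by edgeR (background 0.11% of 15413 genes, either direction), 0 had an unadjusted p under 0.05 (background 10.5%), and DESeq2, which gave an adjusted p to Junb only, did not call it. For Fos the meth level over the saline level was -0.20 on a log2 scale (edgeR adjusted p = 0.92; SE 0.46), and the 95% interval ran from 0.434 to 1.75 as a ratio of levels. The intervals were 0.572 to 1.73 for Fosb, 0.571 to 1.52 for Junb and 0.858 to 1.21 for Jun. Differences within these bounds are compatible with the data at 95% confidence. They are not a limit of detection, which was not estimated. The Jun interval was the tightest.

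At day 35, 0 of the 4 genes were called by edgeR (background 0% of genes, either direction). DESeq2 called 0 of the 4 and 1 gene in all, and limma-voom called 0 of the 4 and 0 in all. How many genes DESeq2 gave an adjusted p was kept only for the day difference averaged over both drug groups (11671). Its totals in the other comparisons therefore carry no share. With an unadjusted edgeR p under 0.05 there were 0 of the 4 (background 5.85% of genes, either direction). All 4 had lower means in meth than in saline rats, with a median log2 fold change of -0.31 against 0.00 over all genes tested. Fos stood at -0.48 in meth relative to saline rats (edgeR adjusted p = 0.94; SE 0.39), with an interval from 0.397 to 1.29 as a ratio. Junb had -0.38 (SE 0.29, edgeR adjusted p = 0.93), Fosb -0.24 (SE 0.31, edgeR adjusted p = 0.97) and Jun -0.06 (SE 0.11, edgeR adjusted p = 0.98). With 1 library left out, the value of Fos ranged from -0.24 (without saline replicate 9) to -0.70 (without meth replicate 6) and that of Junb from -0.14 to -0.60 without the same libraries. Without saline replicate 9 Jun stood at 0.05, and without saline replicate 10 Fosb stood at 0.04. In 0 of the 4 genes did the meth and saline libraries of a day lie fully apart, where 5.45% of all genes tested did at day 2 and 3.46% at day 35.

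Averaged over both days the log2 difference of Fos between meth and saline rats was -0.34 (edgeR adjusted p = 0.89; SE 0.30). There 0 of the 4 genes were called by edgeR (background 0.013%, either direction), by DESeq2 (31 genes in all) or at an unadjusted edgeR p under 0.05 (background 6.89%). The direct test of whether the meth effect differed between the days called 0 of the 4 genes as well (background 0.136%, either direction), again with 0 at an unadjusted p under 0.05 (background 9.62%). By DESeq2 it called 0 of the 4 and 78 genes in all. The difference of effects for Fos was -0.28 (SE 0.61), with a 95% interval on the log2 scale from -1.60 to 1.03. For Fosb the interval was -1.28 to 0.81, for Junb -1.23 to 0.67 and for Jun -0.42 to 0.25. The interval was widest for Fos and narrowest for Jun.

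**Figure D2:**
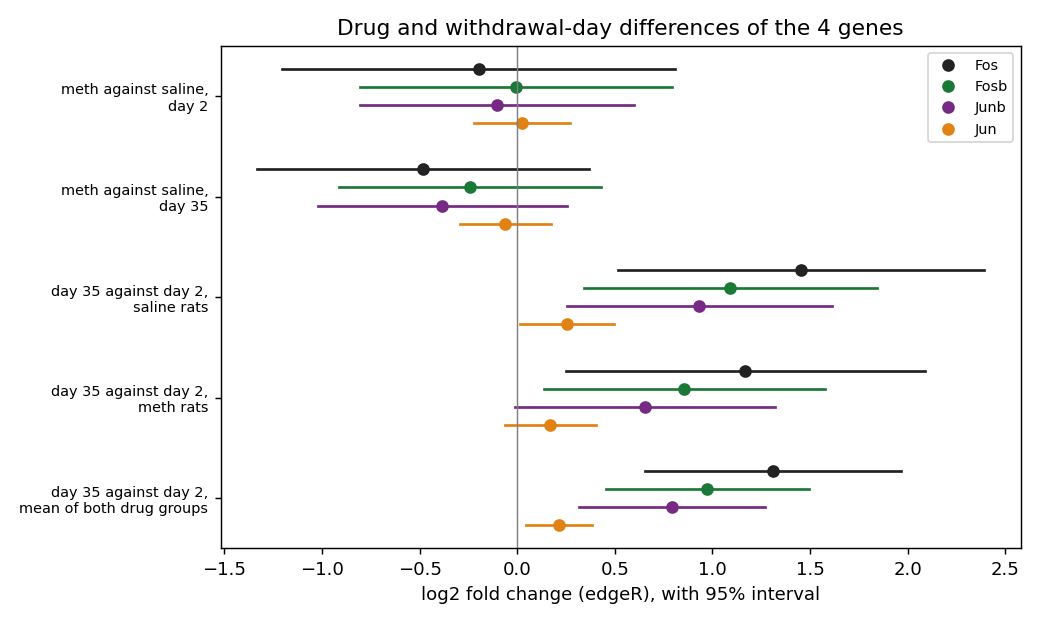
log2 fold change (points, horizontal axis) with the 95% interval (lines) of the 4 genes in 5 comparisons, from edgeR over 16 libraries. Of the 8 drug points 7 lie below 0 and Jun at day 2 just above it, all with intervals that span 0; the day comparisons lie above 0, with Fos farthest at 1.31 and Jun nearest at 0.21 in the mean of both drug groups.

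The second question is what differed between the withdrawal days within each drug group. In meth rats Fos was 2.25-fold higher at day 35 than at day 2 (log2 fold change 1.17, SE 0.42, edgeR adjusted p = 0.19). Fosb was 1.81-fold higher (0.86, SE 0.33, edgeR adjusted p = 0.22), Junb 1.57-fold (0.65, SE 0.31, edgeR adjusted p = 0.32) and Jun 1.13-fold (0.17, SE 0.11, edgeR adjusted p = 0.49). edgeR called 0 of the 4 (background 1.83%, either direction), and 2 of the 4 had an unadjusted p under 0.05 (background 16%, either direction). DESeq2 called 0 of them and 551 genes in all.

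All 4 meth libraries of day 35 lay above all 4 of day 2 for Fos, Fosb and Junb, a separation in this direction that 5% of all genes tested showed. For these 3 genes the exact two-sided permutation p was 0.0286, the smallest that 4 against 4 libraries can give, and for Jun it was 0.0571; these values are unadjusted. edgeR's adjusted p for the same comparison did not pass for any of them.

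In saline rats the estimates were larger and the spread wider; that the day difference depended on the drug is the interaction given above, which did not pass. Fos was 2.74-fold higher at day 35 (log2 fold change 1.45, SE 0.43, edgeR adjusted p = 0.41), Fosb 2.13-fold (1.09, SE 0.35, edgeR adjusted p = 0.42), Junb 1.91-fold (0.93, SE 0.31, edgeR adjusted p = 0.45) and Jun 1.19-fold (0.26, SE 0.11, edgeR adjusted p = 0.56). edgeR called 0 of the 4 genes and 0% of all genes (either direction), and all 4 had an unadjusted p under 0.05 (background 8.68%, either direction). DESeq2 called 0 of the 4 and 36 genes in all. In saline rats 0 of the 4 genes had all day 35 libraries above all day 2 libraries (background 1.82%), and the exact permutation p was 0.0571 to 0.143. Without replicates 9 and 10 the log2 fold change was 0.54 for Fos, 0.25 for Fosb, 0.25 for Junb and 0.02 for Jun (edgeR adjusted p = 0.85 to 0.98). These 2 pools were the highest of their group for every gene, and the setting was not planned. Leaving them out therefore had to lower the estimates, and the values show only by how much.

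Since the means of both drug groups were higher at day 35 and the 2 comparisons share no library, the day difference was also averaged over them, a comparison chosen after the values had been seen. Over 8 libraries a day Fos had a lowest, median and highest level of 8.69, 12.0 and 19.5 CPM at day 2 and of 17.7, 25.7 and 55.6 CPM at day 35. The log2 fold change was 1.31 (SE 0.30), a 2.48-fold difference with a 95% interval of 1.57 to 3.91, and the edgeR adjusted p of 0.063 did not pass. Fosb was 1.97-fold higher (interval 1.37 to 2.82, edgeR adjusted p = 0.073), Junb 1.73-fold (1.25 to 2.41, edgeR adjusted p = 0.0996) and Jun 1.16-fold (1.03 to 1.30, edgeR adjusted p = 0.21). By unadjusted p these genes ranked 223, 299, 513 and 1271 of 15413.

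In this averaged comparison edgeR thus called 0 of the 4 genes against a background of 1.06% (either direction; 0.35% higher), and all 4 had an unadjusted p under 0.05 (background 15.2%, either direction). With all 8 libraries of day 35 above all 8 of day 2, 0 of the 4 genes were found (background 0.0973%). The call depended on the test. With the sequencing lane as a block 2 of the 4 were called, Fos (edgeR adjusted p = 0.046) and Fosb (edgeR adjusted p = 0.045), where 0.551% of all genes were called higher. DESeq2 called Fos (adjusted p = 0.00096), Fosb (adjusted p = 0.0034) and Junb (adjusted p = 0.011), where 2.02% of genes with an adjusted p were called higher. Without day 35 saline replicate 11, a low pool, edgeR called these 3 genes too (background 0.458% higher), and without replicate 12 it called Fosb (background 0.297% higher). Without both high pools, replicates 9 and 10, the averaged log2 fold change was 0.86 for Fos (edgeR adjusted p = 0.18), 0.55 for Fosb (edgeR adjusted p = 0.11), 0.45 for Junb (edgeR adjusted p = 0.26) and 0.10 for Jun (edgeR adjusted p = 0.49). Exact permutation of the day within each drug group gave unadjusted p-values of 0.00082 for Fos, 0.0012 for Fosb, 0.0029 for Junb and 0.023 for Jun, of which 0.00041 is the smallest possible.

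Each group carries 1 sequencing index, so a difference in library preparation between groups and a difference between withdrawal days cannot be told apart. The day 35 libraries were also deeper than the day 2 saline libraries. All libraries were also thinned at random to the depth of the shallowest. The averaged log2 fold changes were then 1.24 for Fos, 1.00 for Fosb, 0.81 for Junb and 0.20 for Jun. Random thinning leaves the expected ratio of levels as it was, so values close to those at full depth were fixed in advance. Whether depth had a part in the day difference was not tested.

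Whether the 4 genes differed between the days by the same factor was asked with ratios of pairs. The levels themselves raised this question, so the p-values of the ratios are not independent of that choice. The ratio of Fos to Jun in the same library, on the CPM scale and compared only between libraries, was 0.316 to 0.647 at day 2 and 0.543 to 1.48 at day 35. Its log2 was higher by 1.04 at day 35 (0.99 in meth and 1.10 in saline rats; exact permutation p = 0.00082, 0.0024 after Benjamini-Hochberg adjustment over the 6 pairs of genes). The ratio of Fosb to Jun was higher by 0.67 (exact permutation p = 0.00082, adjusted 0.0024), that of Junb to Jun by 0.52 (exact permutation p = 0.0049, adjusted 0.0073) and that of Fos to Junb by 0.52 (exact permutation p = 0.0037, adjusted 0.0073). Scaling of the libraries cancels in such a ratio. Relative to both Jun-family genes Fos was thus higher in the day 35 libraries, and Fosb and Junb were higher relative to Jun.

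The ratio of Fos to Fosb was higher by 0.37 (exact permutation p = 0.030, adjusted 0.036), but the adjusted p lay above 0.05 when any of 8 libraries was left out (0.053 to 0.066) and without both high saline pools (0.088). These libraries were day 2 saline replicates 14 and 16, day 2 meth replicates 1 and 4, day 35 saline replicates 9 and 12, and day 35 meth replicates 6 and 7. Fosb and Junb did not separate, with a log2 ratio higher by 0.15 (exact permutation p = 0.26). These comparisons of ratios were chosen after the levels had been seen. No ratio passed between meth and saline rats (adjusted exact permutation p = 0.51 to 0.76).

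The spread between pools of the same group was large for 3 of the 4 genes. edgeR's biological coefficient of variation, the part of the spread beyond counting error, was 39.9% for Fos, 30.8% for Fosb and 29.0% for Junb, against a median of 5.85% over all genes tested. Jun had 10.6%. Fos ranked 93 from the top of 15413 genes, Fosb 187, Junb 230 and Jun 3355. Among the 500 genes nearest in mean level, 1 varied more than Fos, 0 more than Fosb, 0 more than Junb and 24 more than Jun.

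**Figure D3:**
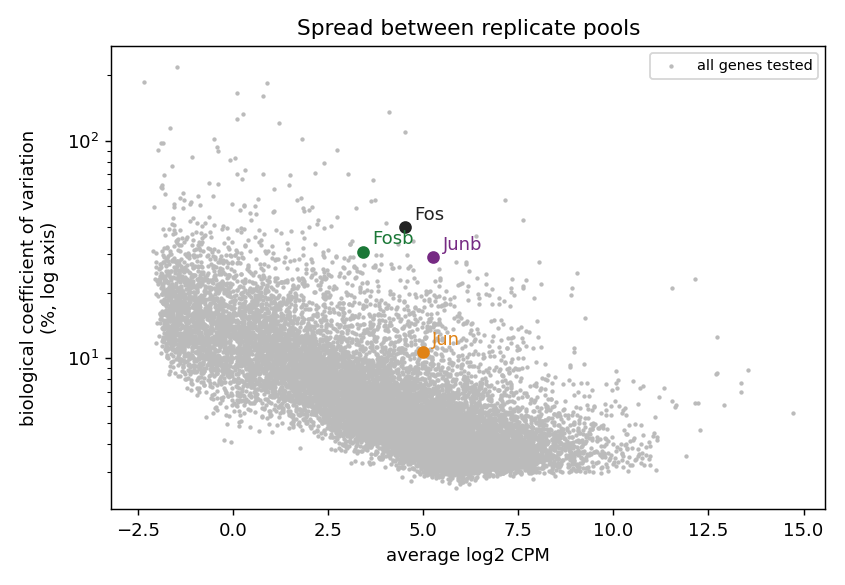
Biological coefficient of variation between replicate pools (vertical axis, percent, log scale) against average log2 CPM (horizontal axis) for the 15413 genes tested, 1 grey point per gene. Fos (39.9%), Fosb (30.8%) and Junb (29.0%) lie at the upper edge of the genes of their level, and Jun (10.6%) nearer the bulk.

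The widest group was day 35 saline for every gene, with a coefficient of variation of CPM of 54.0% for Fos, 52.0% for Fosb, 44.8% for Junb and 18.4% for Jun. There the highest pool exceeded the lowest 2.98-fold for Fos, 2.83-fold for Fosb, 2.82-fold for Junb and 1.5-fold for Jun. The tightest group was day 2 meth, with 28.3%, 8.13%, 13.5% and 5.54%. The difference in spread between groups was not tested.

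The 4 genes deviated together. With each library expressed as its difference from the group mean in log2 CPM, a pool that was high for Fos tended to be high for the others too. Over 16 libraries Fos and Junb had Pearson r = 0.89 (permutation p = 0.00045, 0.0027 after Benjamini-Hochberg adjustment over 6 pairs) and Spearman rho = 0.90 (permutation p = 0.0032). Fos and Fosb had r = 0.88 (permutation p = 0.0020, adjusted 0.0061) and rho = 0.88 (permutation p = 0.0042). Fos and Jun had r = 0.84 (permutation p = 0.0030, adjusted 0.0061) and rho = 0.90 (permutation p = 0.0025). All permutations were made within groups and two-sided.

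Junb and Jun followed with r = 0.84 (permutation p = 0.010, adjusted 0.015) and rho = 0.88 (permutation p = 0.0032). Fosb and Junb had r = 0.82 (permutation p = 0.025, adjusted 0.030) and rho = 0.74 (permutation p = 0.045), and Fosb and Jun r = 0.80 (permutation p = 0.034, adjusted 0.034) and rho = 0.79 (permutation p = 0.024). Without the 2 libraries farthest from the median of the first gene, r was 0.76 to 0.88 over the 6 pairs. The last 2 pairs then had an adjusted permutation p of 0.055 each. Those 2 pairs also missed 0.05 without day 2 saline replicate 13, day 35 meth replicate 6 or day 35 meth replicate 7, Fosb and Jun also without day 2 saline replicate 16 or day 2 meth replicate 1, and Junb and Jun without day 35 meth replicate 6 (adjusted permutation p = 0.050 to 0.094).

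In the 8 libraries of day 35 r between the pairs was 0.84 to 0.98, and in the 8 of day 2 it was 0.41 to 0.89, the lowest being Fosb and Junb. Fos and Jun had 0.86 at day 35 and 0.89 at day 2, and the other 5 pairs had the higher r at day 35. These values are a description without a test. Without removing the group means, r over the 16 libraries was 0.87 to 0.94.

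**Figure D4:**
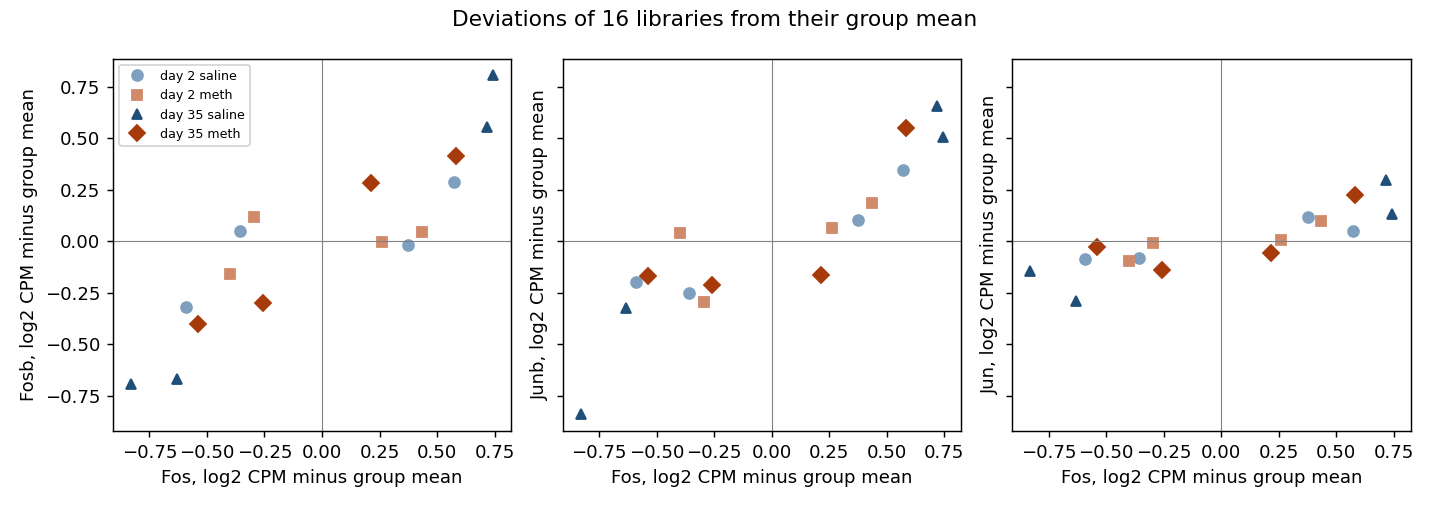
Deviation of each of the 16 libraries from its group mean in log2 CPM, Fos on the horizontal axis and Fosb, Junb and Jun on the vertical axes, with markers for the 4 groups. Libraries high for Fos are high for the other genes (r = 0.88, 0.89 and 0.84), with day 35 saline libraries at both ends and a shallower slope for Jun.

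Against the rest of the transcriptome the 4 genes stood near the top of each other's lists. Of the 13560 other genes at a mean of 1 CPM or more, Junb was 4th, Fosb 5th and Jun 15th by r with Fos. Fos was 5th for Fosb, 6th for Junb and 3rd for Jun. The median r of Fos with the non-member genes was 0.01 (quartiles -0.23 and 0.24), and 30 of 13557 such genes had r over 0.8. These ranks describe 16 libraries, which all genes share, and carry no p.

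The 2 other genes with the highest mean r over the 4 were ENSRNOG00000015719 and ENSRNOG00000003977, whose symbols the files do not give. ENSRNOG00000015719 had r = 0.92 with Fos and 0.94 with Fosb. It stood at 34.3 ± 11.3 CPM in day 35 saline, 29.7 ± 7.54 in day 35 meth, 22.5 ± 5.32 in day 2 saline and 20.1 ± 0.598 in day 2 meth libraries (SD, n = 4). ENSRNOG00000003977 had r = 0.98 with Junb, the highest of any gene with any of the 4, and stood at 78.5 ± 33.8, 60.7 ± 16.4, 45.3 ± 8.17 and 47.2 ± 5.32 CPM in the same groups. Their averaged day differences of 0.59 and 0.58 (log2) did not pass either (edgeR adjusted p = 0.12 and 0.20).

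**Figure D5:**
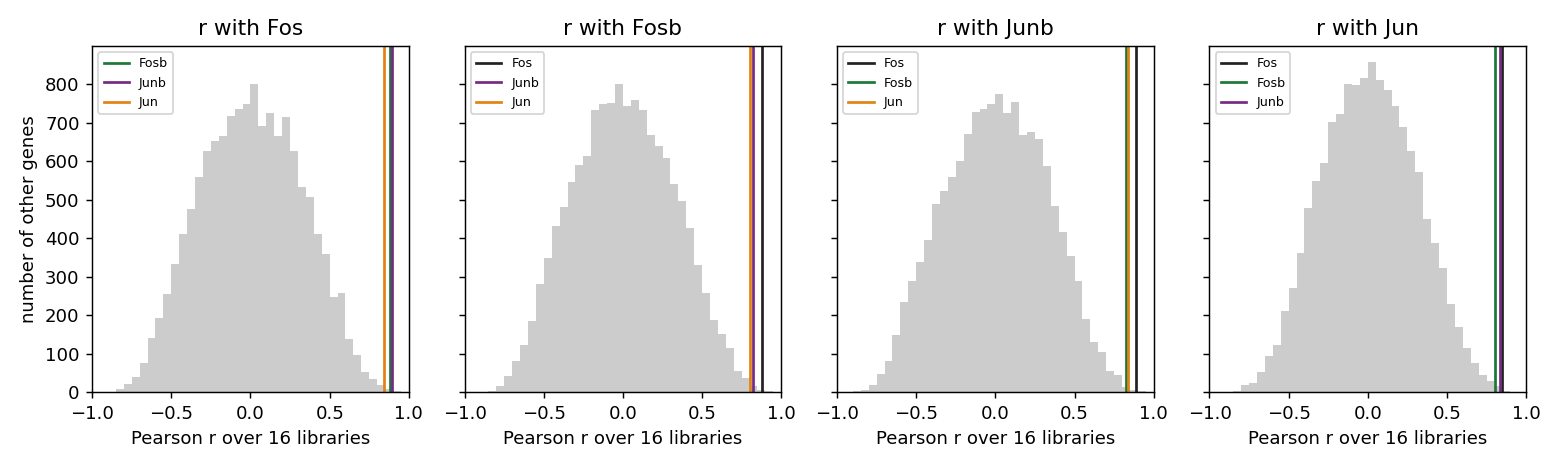
Distribution of Pearson r over 16 libraries (deviations from group means) between each of the 4 genes and the 13557 other genes at 1 CPM or more (grey bars, number of genes), with lines for the other 3 members. The lines stand at 0.80 to 0.89, in the right tail of distributions centred near 0.

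The deviations were set beside what the files and labels record of each library. The mean deviation of each of the 4 genes was positive on lanes 1 and 2 and negative on lanes 3 and 4, but single libraries varied. For Fos the mean deviation was 0.28 on lane 1, 0.35 on lane 2, -0.11 on lane 3 and -0.51 on lane 4 (log2, SD 0.50, 0.49, 0.55 and 0.15, n = 4 each), and 0 of the 4 lane 4 libraries lay above their group mean. For Fosb it was 0.24, 0.33, -0.25 and -0.32, for Junb 0.22, 0.25, -0.22 and -0.25, and for Jun 0.05, 0.09, -0.04 and -0.10. On lane 3, 2 of the 4 libraries lay above their group mean for Fos, Junb and Jun, and 0 for Fosb. On lane 1, 2 of the 4 libraries lay above it for Jun and 3 for each of the other genes. Day 35 saline replicates 9 and 10 are the lane 1 and lane 2 libraries of their group. Every lane held 1 library of each group, so lane does not set the group means. With group and lane means both removed, r between the 6 pairs was 0.69 to 0.87. The rats were trained in 2 runs, and no label ties a library to a run, so its part was not tested.

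Sequencing depth, the share of reads outside counted genes (20.9 to 22.4%) and the share with several alignments (9.17 to 10.3%) were compared with the deviations in 12 correlations. The Pearson r was 0.24 to 0.40 with depth, -0.27 to 0.02 with the share outside genes and -0.25 to 0.00 with the share of several alignments. Spearman rho lay between -0.29 and 0.35, and the lowest adjusted permutation p was 0.87. Without the 2 libraries farthest out in each measure, r with the share outside genes was 0.47 to 0.59 and r with depth -0.33 to -0.13, so the signs rest on those libraries. Of the 2 high saline pools of day 35, replicate 9 was the deepest of all libraries and replicate 10, at 32.5 units of 1000000 gene counts, was shallower than every day 35 meth library.

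As planned, the promoters were searched for the letters of the cAMP response element, the AP-1 site, the CArG box, the TATA box and the Sp1 box. Whether shared letters have a part in the joint deviation of the 4 genes was not tested. RefSeq promoter windows (build GRCr8) were at hand for Fosb and Junb, 2 of the 4 genes. The window of Fosb overlaps the span that RefSeq gives the gene and is not printed. The 250 bases before the start of Junb, on the plus strand at chr19:40080876-40081125, are shown as the only window at hand without such an overlap. The matches are in capitals, the first letters of the cAMP response element (TGACG) and a TATA box (TATAAA).
Junb: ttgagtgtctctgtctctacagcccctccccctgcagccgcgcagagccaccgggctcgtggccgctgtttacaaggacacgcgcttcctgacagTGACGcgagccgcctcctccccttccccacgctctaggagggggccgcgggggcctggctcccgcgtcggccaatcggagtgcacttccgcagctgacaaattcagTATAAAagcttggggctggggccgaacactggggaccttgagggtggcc

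The TGACG letters lay 155 to 151 bases before the start of Junb and the TATA box 49 to 44 bases before it, both on the strand of the gene. Of the 33469 windows of this length, 18.2% held TGACG and 12.9% held TATAAA on either strand. The full cAMP response element (TGACGTCA, in 1.59% of windows, each of which also holds TGACG), the AP-1 site (TGACTCA, 4.05%), the CArG box of SRF (1.5%) and the Sp1 box (GGGCGG, 30.5%) had no match in either window. The Fosb window had 1 match, to TATAAA on the opposite strand. A match describes letters and not a bound site. The lack of a match covers only these 250 bases, and the Fosb window overlaps the span of the gene.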

How the data were processed

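Poly(A) RNA-seq of 16 orbitofrontal libraries in 4 groups was used, and samples of the central amygdala were left out. Withdrawal is labelled as short or long, and the days are taken from the series' design text. The deposited values are raw read counts per gene. TopHat, HTSeq, limma and build rn4 are named, per the submitters' processing notes; their versions, the annotation and the strand setting are not given in the sources used. The 5 summary rows of each file (31.1 to 32.6% of its total) were left out. No replicate pair was identical (chi-square 5.19 to 17.0 times its degrees of freedom).

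Counts were filtered with filterByExpr, scaled with TMM (factors 0.985 to 1.02) and tested with edgeR 4.0.16's quasi-likelihood test in 1 fit of 4 group means (R 4.3.3), with Benjamini-Hochberg adjustment over all genes and a threshold of 0.05. SE is the fold change over the square root of F. log2 CPM used a prior count of 2. Correlations used 100000 permutations within groups. The scripts were tested on simulated data. As alternatives the fits were repeated with DESeq2 1.42.0 or voom of limma 3.58.1, with median-ratio size factors, unfiltered or requiring 1 CPM in 4 libraries, with the lane as a block, with only the groups compared, after thinning, and without each library. Libraries are paired by the lane in the labels; over all genes deviations correlated by 0.01 on average over 24 same-lane pairs (-0.17 to 0.16).

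The members, lists and tests were chosen with earlier results of these data known. All 4 members were named in every comparison, and, as no table matched identifiers to symbols, the 2 other identifiers with the highest mean r. The lists of other AP-1, immediate-early, upstream, later activity and cell type marker genes could not be run for that reason. P-values set the differences against the spread between libraries. These are pools of 2 rats that, within a group, were on different lanes.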

Additional observations from a re-analysis of the deposited data

Results flagged for a closer look

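Junb in day 35 meth replicate 6 stood at 60.2 CPM, apart from the other 3 libraries of its group, which lay between 35.5 and 36.8 CPM. The gap to the nearest library was 0.948 of the group's range, above Dixon's 95% bound for 4 libraries. It was the only 1 of 16 sets of 4 values, 4 genes in 4 groups, past that bound, where chance gives about 1 in 20. The same library was the highest of its group for Fos (38.6 CPM), Fosb (16.3 CPM) and Jun (38.9 CPM) without passing the bound. Without it the log2 fold change of Junb between the days in meth rats was 0.44 (edgeR adjusted p = 0.58), against 0.65 with it.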

How the results depend on the processing

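Under the planned and added settings the number of the 4 genes past an adjusted p of 0.05 was 0 in the drug comparisons and in the day comparison within each drug group. In the averaged day comparison it was 0 with edgeR, 2 with lane as a replicate block, 3 with DESeq2, 0 with limma-voom and 0 to 3 when 1 library was left out (3 without day 35 saline replicate 11, 1 without replicate 12). The cause was not tested. The block, which pairs libraries of 1 lane, also turned the day 2 drug difference of Fosb from -0.0056 to 0.032 (edgeR adjusted p = 0.98), and limma-voom turned it to 0.016. It changed no other call of the 4 genes. Leaving out 1 library turned small drug differences: at day 2 the log2 fold changes ranged from -0.109 to 0.088 for Fosb, -0.187 to 0.015 for Junb and -0.014 to 0.060 for Jun, and at day 35 from -0.436 to 0.042 for Fosb and -0.151 to 0.052 for Jun. The difference of the effects ranged from -0.428 to 0.053 for Fosb and -0.172 to 0.030 for Jun, and the mean of both days from -0.222 to 0.015 and -0.065 to 0.036. The correlation of Fosb with Junb was 0.76 and that of Fosb with Jun 0.82 without the 2 farthest libraries (adjusted permutation p = 0.055). With 1 library left out they ranged from 0.76 to 0.87 and 0.73 to 0.85, and Junb with Jun from 0.77 to 0.89.

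Counts over all genes moved more. DESeq2 called 551 against 282 genes between the days in meth rats, 36 against 0 in saline rats, 475 against 163 in the average, 78 against 21 in the difference of effects, 31 against 2 in the mean drug effect and 1 against 0 at day 35. Thinning gave 147 genes between the days in meth rats, 94 in the average, 9 in the difference of effects and 1 in the mean drug effect. The difference of effects called 8 genes with median-ratio size factors, 9 with the stricter filter, 9 with limma-voom and 4 with the lane block. The average called 71 without both high saline pools. Leaving out 1 library gave 104 to 305, 0 to 2, 59 to 228, 0 to 17, 1 to 4 and 0 to 1 genes in that order, and 6 to 21 against 17 between the drugs at day 2.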
